A study of Homo sapiens with 21 samples.

Results

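The 10 circular RNAs (circRNAs) described here differed between gefitinib-resistant and other PC-9 lung cancer cells, and were followed through all 21 libraries of the series. They are 10 of the 124082 circRNAs in the deposited table. Of these, 7 were higher in the resistant cells (hsa_circ_502, hsa_circ_7464, hsa_circ_19153, hsa_circ_19154, hsa_circ_19211, hsa_circ_3924 and hsa_circ_15945) and 3 were lower (hsa_circ_16219, hsa_circ_13695 and hsa_circ_7627). They were chosen by their read counts in the 6 PC-9 libraries of that comparison, in which they held ranks 1 to 7, 9, 10 and 12 by p-value among 9175 circRNAs tested. Their PC-9 values are therefore a description and carry no test. The best-ranked circRNA outside the list had 458 reads in the resistant and 206 in the other PC-9 libraries, a log2 difference of 1.42. The question put to the other libraries was whether resistance to another inhibitor of the same receptor, osimertinib, moved the same circRNAs.

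The series holds 7 groups of 3 libraries. NL20 is an immortalized bronchial epithelial line that forms no tumours. PC-9 and NCI-H1975 are lung cancer lines with a mutated EGFR, the receptor tyrosine kinase that both drugs block. PC-9 was sequenced without a resistance code and as gefitinib-resistant cells, which were treated with 1 µM gefitinib. The NCI-H1975 groups are cells that carry neither code, osimertinib-resistant cells treated with 1 µM osimertinib, and cells after transfection with pCMV6 or with FASN, fatty acid synthase, each under 50 µg/ml of the selection agent G418. All were grown in RPMI with serum. The labels do not say whether a resistant line or a transfectant is 1 clone, nor whether replicate libraries represent separate cultures, so that p-values measure a spread between libraries that may be technical. Resistance and the drug present in the medium cannot be told apart, and neither can fewer cells with a circRNA and less of it per cell. Gefitinib was used in PC-9 only and osimertinib in NCI-H1975 only, so a difference between the drugs cannot be told apart from one between the lines.

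A circRNA forms when the splicing machinery joins the end of an exon back to the start of an upstream exon of the same transcript. The closed molecule has no free ends, resists exonucleases and is usually more stable than the linear RNA of its host gene. Its level follows the transcription of the host gene, the balance between linear and back-splicing, and decay. Gefitinib is a reversible EGFR inhibitor, and PC-9 cells carry an activating EGFR deletion that makes them sensitive to it. NCI-H1975 cells carry, besides an activating mutation, one that confers resistance to gefitinib, and osimertinib was designed to block that form. The table pairs its identifiers, which run from 1 to 124082, with no gene name, coordinate or sequence, so the host genes, and with them the roles, of the 10 circRNAs are not given here. For the same reason the lines were not checked against marker genes.

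Levels are given as CPM, the usual depth-scaled read count, here relative to the reads in the circRNAs tested and with library sizes adjusted by TMM (trimmed mean of M values). All 10 circRNAs passed the filter on low counts and all were read in each of the 21 libraries, with between 1 and 614 reads. Over all libraries hsa_circ_16219 had 6696 reads and was the circRNA of rank 7 in the table. hsa_circ_19153 followed with 5053 reads at rank 13, and hsa_circ_3924, with 617 reads at rank 609, had the fewest. Library totals ran from 95808 to 203079 reads. Osimertinib-resistant replicate 2 stood apart, with the fewest distinct circRNAs of any library, 15244. Its counts differed from those of the other libraries of its group by a chi-square per degree of freedom of 4.97 and 4.51, against 2.69 between those libraries. The osimertinib difference of each of the 10 is given with and without it.

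In PC-9 the list splits by direction as the choice of members fixed it, and the sizes differed within each direction. The 7 higher circRNAs had a median log2 difference of 1.92 and the 3 lower ones -1.19, against a median of 0.00 over all circRNAs tested. In this comparison edgeR's quasi-likelihood test called 0.73% of all circRNAs tested higher and 0.621% lower at an adjusted p under 0.05. The 10 together took 0.588% ± 0.016 of the reads in PC-9 libraries (SD, n = 3) and 0.854% ± 0.045 in gefitinib-resistant libraries, beside 0.992% ± 0.057 in NCI-H1975 and 0.999% ± 0.035 in NL20. For each of the 10, the resistant libraries lay all above or all below the other PC-9 libraries, as the plot of levels by library shows.

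**Figure D1:**
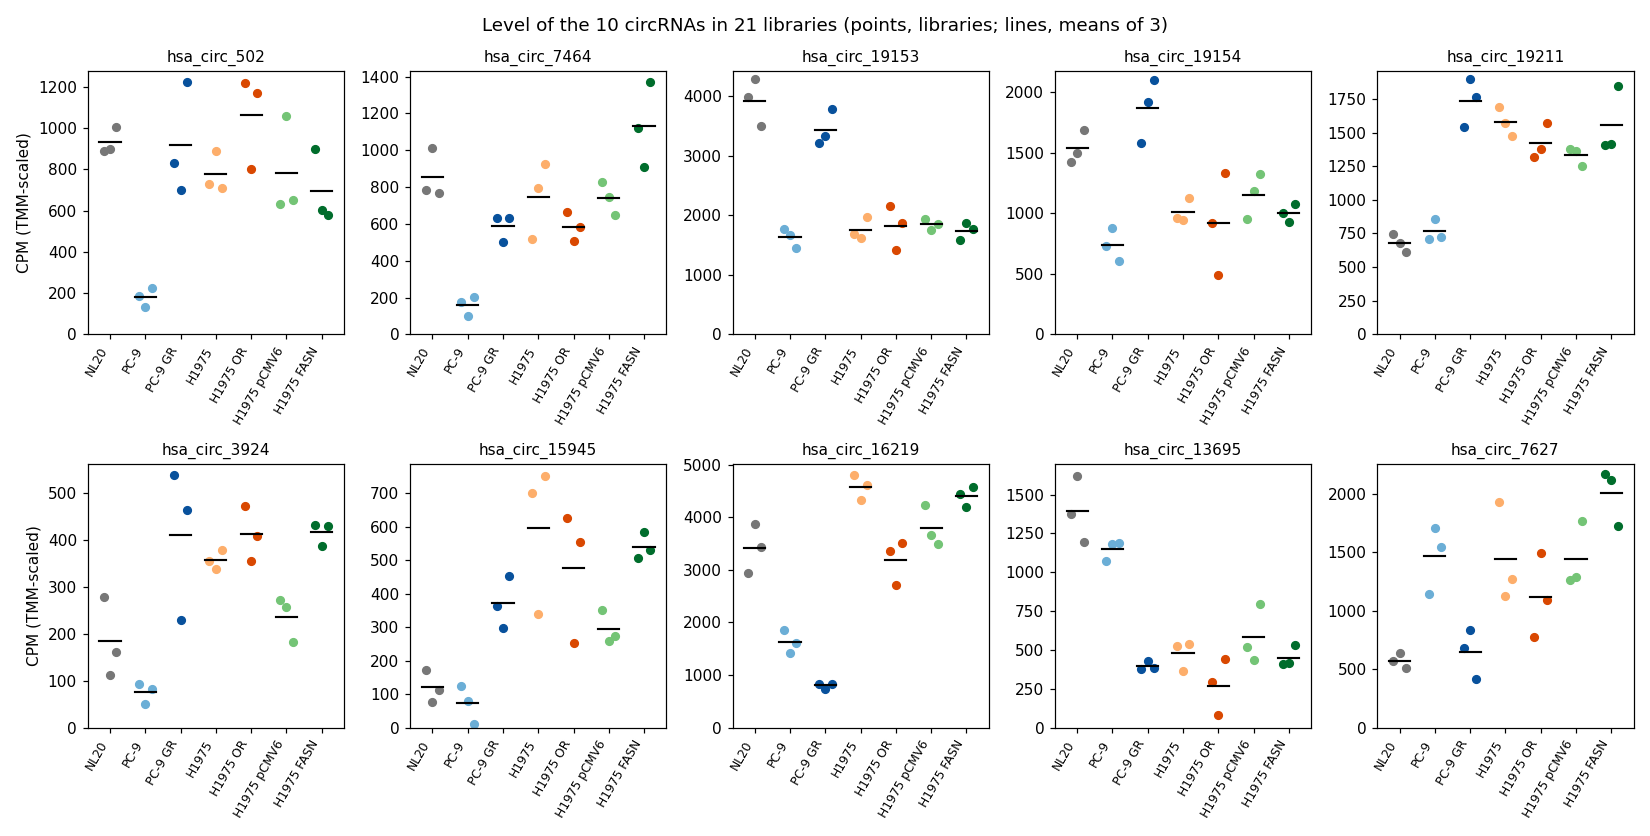
Level of each of the 10 circRNAs (vertical axis, TMM-scaled CPM from 0, a scale of its own in each panel) in the 7 groups (horizontal axis; GR, gefitinib-resistant; OR, osimertinib-resistant). Points are libraries and lines are means of 3. In hsa_circ_502 and hsa_circ_7464 the PC-9 libraries alone are low, at 226 CPM or less, while in hsa_circ_16219 the gefitinib-resistant libraries are lowest, at 838 CPM or less.

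A pair of the circRNAs higher in gefitinib-resistant cells was scarce in PC-9 and in no other group. hsa_circ_502 stood at 186, 131 and 226 CPM in the PC-9 libraries and at 831, 701 and 1223.5 CPM in the gefitinib-resistant ones, 5.17-fold higher (log2 2.37 ± 0.27 SE). The resistant cells lay in the range of the other groups, whose means lay between 694 CPM in FASN cells and 1065 CPM in osimertinib-resistant cells. hsa_circ_7464 stood at 175, 102 and 202 CPM in PC-9 and at 632, 504 and 634 CPM in gefitinib-resistant cells, 3.79-fold higher (log2 1.92 ± 0.29 SE). Its other groups ranged from a mean of 584 CPM in osimertinib-resistant to 1133 CPM in FASN cells. For both, every PC-9 library was below every library of the other 6 groups.

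The consecutively numbered hsa_circ_19153 and hsa_circ_19154 were high in NL20 and in gefitinib-resistant PC-9, and stood lower in all other groups. hsa_circ_19153 stood at 1775, 1677 and 1452 CPM in PC-9 and at 3208, 3332 and 3784 CPM in gefitinib-resistant cells, 2.1-fold higher (log2 1.07 ± 0.17 SE). NL20 had 3922 ± 400 CPM (SD, n = 3), a range that overlaps that of the gefitinib-resistant cells. The 4 NCI-H1975 groups had means from 1735 to 1849 CPM, and their ranges overlapped one another and that of PC-9. hsa_circ_19154 stood at 733, 875 and 607 CPM in PC-9 and at 1581, 1918 and 2096 CPM in gefitinib-resistant cells, 2.51-fold higher (log2 1.33 ± 0.21 SE). NL20 again overlapped the latter, at 1538 ± 135 CPM, and the other groups had means from 738 to 1154 CPM.

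The remaining 3 higher circRNAs were low in both PC-9 and NL20 and higher in NCI-H1975, except that pCMV6 cells overlapped NL20 in hsa_circ_3924. hsa_circ_19211 stood at 712, 860 and 726 CPM in PC-9 and at 1545, 1896 and 1767 CPM in gefitinib-resistant cells, 2.26-fold higher (log2 1.17 ± 0.20 SE). Its NL20 level of 679 ± 66.4 CPM (SD, n = 3) overlapped that of PC-9. hsa_circ_3924 stood at 92.9, 51.1 and 83.3 CPM in PC-9, on 9, 7 and 7 reads, and at 539, 230 and 464 CPM in gefitinib-resistant cells, 5.5-fold higher (log2 2.46 ± 0.42 SE). Here PC-9 was below every library of NL20, which stood at 184 ± 85.8 CPM, beside 237 ± 48.1 CPM in pCMV6 cells. hsa_circ_15945 stood at 124, 80.2 and 11.9 CPM in PC-9, the last on 1 read, and at 363, 296 and 453 CPM in gefitinib-resistant cells, 4.91-fold higher (log2 2.30 ± 0.40 SE). Its NL20 level was 120 ± 49.0 CPM and overlapped that of PC-9.

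Of the 3 circRNAs lower in gefitinib-resistant cells, hsa_circ_16219 was the most abundant. It stood at 1858, 1422 and 1619 CPM in PC-9 and at 831, 734 and 838 CPM in gefitinib-resistant cells, 2.03-fold lower (log2 -1.02 ± 0.17 SE). Both were below every library of every other group, among which means ranged from 3195 CPM in osimertinib-resistant cells to 4585 CPM in NCI-H1975. hsa_circ_13695 stood at 1073, 1181 and 1190.2 CPM in PC-9 and at 375, 427 and 385 CPM in gefitinib-resistant cells, 2.89-fold lower (log2 -1.53 ± 0.26 SE). Only NL20 was higher than PC-9, at 1395 ± 214 CPM (SD, n = 3). The gefitinib-resistant level overlapped those of NCI-H1975, 478 ± 97.7 CPM, osimertinib-resistant, 270 ± 180 CPM, and FASN cells, 450 ± 69.2 CPM. hsa_circ_7627 stood at 1145, 1706 and 1547 CPM in PC-9 and at 679, 833 and 419 CPM in gefitinib-resistant cells, 2.28-fold lower (log2 -1.19 ± 0.21 SE). The resistant libraries overlapped NL20, at 573 ± 62.0 CPM, and the PC-9 libraries overlapped NCI-H1975, at 1443 ± 429 CPM.

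Osimertinib-resistant NCI-H1975 cells were then compared with NCI-H1975 cells, libraries outside the comparison that chose the list. All groups share the model's estimate of the spread. The list and the comparisons were chosen with earlier results of these data known. Of the 10 circRNAs, 1 changed: hsa_circ_16219 fell. None of the 7 circRNAs higher with gefitinib resistance was called in either direction, by edgeR's quasi-likelihood test or by DESeq2, and 1 of them had an unadjusted p under 0.05. Over the whole list that number was 3 of 10, beside 13.9% of all circRNAs tested. Most of these had fewer reads than any of the 10, and the share among circRNAs read as well as the 10 was not computed. Without osimertinib-resistant replicate 2, edgeR called 0 of the 10, beside 159 (93 higher, 66 lower) of the 12188 circRNAs that then passed the filter. In that setting 3 of the 10 had an unadjusted p under 0.05, and the share among all was not computed. For 9 of the 10 the libraries of the 2 groups overlapped. Over all circRNAs tested edgeR called 1.36% higher and 1.16% lower. Among the 612 circRNAs with at least as many reads as the least-read of the list the shares were 9.31% and 7.03%, so that 1 lower and 0 higher of 10 lie near that background.

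hsa_circ_16219 stood at 4811, 4323 and 4621 CPM in NCI-H1975 and at 3369, 2709 and 3507 CPM in osimertinib-resistant cells. Every resistant library was below every NCI-H1975 library, which held for 16.2% of the 612 well-read circRNAs, while 17.5% lay wholly above. The level fell by 0.52 on the log2 scale (SE 0.16, 95% interval -0.82 to -0.22), 1.43-fold, with an edgeR adjusted p of 0.0365. In PC-9 its log2 difference was -1.02, and without osimertinib-resistant replicate 2 the osimertinib difference was -0.42. The log2 change stayed between -0.62 and -0.42 over the 13 alternative settings, but the adjusted p ran from 0.00215 to 0.942, the latter without the filter on low counts. The edgeR adjusted p was 0.181, 0.0536 and 0.113 without NCI-H1975 replicate 1, 2 or 3, and 0.0817 and 0.268 without osimertinib-resistant replicate 1 or 2. With osimertinib-resistant replicate 3 left out it was 0.043, the single omission of 6 under which the call remained.

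The other circRNAs that were lower in gefitinib-resistant cells were not called. hsa_circ_13695 stood at 528, 365 and 540.4 CPM in NCI-H1975 and at 292, 80.4 and 438 CPM in osimertinib-resistant cells, where replicate 2 had 7 reads. Its log2 difference was -0.79 (95% interval -1.33 to -0.26, edgeR adjusted p = 0.1). Without osimertinib-resistant replicate 2 the difference was -0.39 with an edgeR adjusted p of 0.636, and without replicate 3 it was -1.34 with an edgeR adjusted p of 0.00732. The size of this difference therefore depended on which resistant library was left out. hsa_circ_7627 stood at 1930.3, 1123 and 1274 CPM in NCI-H1975 and at 777, 1492 and 1096 CPM in osimertinib-resistant cells, a log2 difference of -0.36 (95% interval -0.76 to 0.03, edgeR adjusted p = 0.409). That difference was -0.63 without osimertinib-resistant replicate 2 (edgeR adjusted p = 0.163), -0.54 without NCI-H1975 replicate 2, -0.15 without osimertinib-resistant replicate 1 and -0.13 without NCI-H1975 replicate 1. All 3 circRNAs of this direction had negative log2 differences. Their median was -0.52, the value of hsa_circ_16219, beside -0.05 over all circRNAs tested, and a shift shared by the 3 was not tested. Without osimertinib-resistant replicate 2 these medians were -0.42 and -0.02.

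Among the circRNAs higher in gefitinib-resistant cells, hsa_circ_502 came nearest to a call with osimertinib. It stood at 729.9, 891 and 709.8 CPM in NCI-H1975 and at 1220.4, 804 and 1172 CPM in osimertinib-resistant cells. The groups overlapped through resistant replicate 2, and the log2 difference was 0.46 (95% interval 0.00 to 0.92, edgeR adjusted p = 0.358). Without that library it was 0.62 with an edgeR adjusted p of 0.28. hsa_circ_7464, which shared its scarcity in PC-9, lay on the other side of 0: 519, 793 and 928 CPM in NCI-H1975 against 666, 505 and 581 CPM, a log2 difference of -0.36 (95% interval -0.84 to 0.13, edgeR adjusted p = 0.567). It was -0.27 without osimertinib-resistant replicate 2, and -0.58 and -0.20 without NCI-H1975 replicates 1 and 3.

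For the consecutively numbered pair no change with osimertinib was detectable, and the sign depended on the libraries used. hsa_circ_19153 stood at 1690.2, 1622 and 1968 CPM in NCI-H1975 and at 2158, 1424 and 1868 CPM in osimertinib-resistant cells, a log2 difference of 0.05 (95% interval -0.29 to 0.38, edgeR adjusted p = 0.967). hsa_circ_19154 stood at 960.3, 945 and 1129 CPM against 918, 494 and 1334 CPM, a log2 difference of -0.14 (95% interval -0.54 to 0.27, edgeR adjusted p = 0.865). Without osimertinib-resistant replicate 2, the lowest library for both, the differences were 0.19 for hsa_circ_19153 and 0.15 for hsa_circ_19154, and without replicate 3 that of hsa_circ_19154 was -0.52. The upper interval bounds of 0.38 and 0.27 compare with log2 differences of 1.07 and 1.33 in PC-9.

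The last 3 circRNAs of this direction also overlapped between osimertinib-resistant and NCI-H1975 cells. hsa_circ_19211 stood at 1690.2, 1569 and 1476 CPM in NCI-H1975 and at 1321, 1378 and 1573 CPM in osimertinib-resistant cells, a log2 difference of -0.15 (95% interval -0.53 to 0.24, edgeR adjusted p = 0.832). hsa_circ_3924 stood at 355, 339 and 379 CPM against 474, 356 and 409.8 CPM, a log2 difference of 0.21 (95% interval -0.46 to 0.88, edgeR adjusted p = 0.878). hsa_circ_15945 stood at 701, 339 and 750.1 CPM against 625, 253 and 553 CPM, a log2 difference of -0.31 (95% interval -0.92 to 0.29, edgeR adjusted p = 0.736). In hsa_circ_15945 each group held 1 library far below the other 2, replicate 2 in both. Its difference was -0.02 without that osimertinib-resistant library and -0.62 without that NCI-H1975 library. It was -0.55 and -0.20 without replicate 1 of the resistant and of the NCI-H1975 cells, and -0.14 without NCI-H1975 replicate 3. Without osimertinib-resistant replicate 2 the differences of hsa_circ_19211 and hsa_circ_3924 were -0.13 and 0.30.

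The median size of the log2 difference was 1.43 with gefitinib and 0.34 with osimertinib, beside 0.67 and 0.70 over all circRNAs tested and 0.39 and 0.38 among the 612 well-read ones. Without osimertinib-resistant replicate 2 the osimertinib median was 0.28, beside 0.82 over the 12188 circRNAs that then passed the filter and 0.40 among the well-read ones. The PC-9 values were chosen for their difference, so the difference between the changes was not tested. Nor can it be told apart from a difference between the PC-9 and NCI-H1975 lines. The osimertinib intervals extended to -1.33 in hsa_circ_13695, beside a PC-9 value of -1.53, and to -0.82 in hsa_circ_16219, beside -1.02. They extended to 0.92 in hsa_circ_502, beside 2.37, and to 0.88 in hsa_circ_3924, beside 2.46. For each circRNA of the list the PC-9 value, chosen for its difference, lay outside the osimertinib interval.

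**Figure D2:**
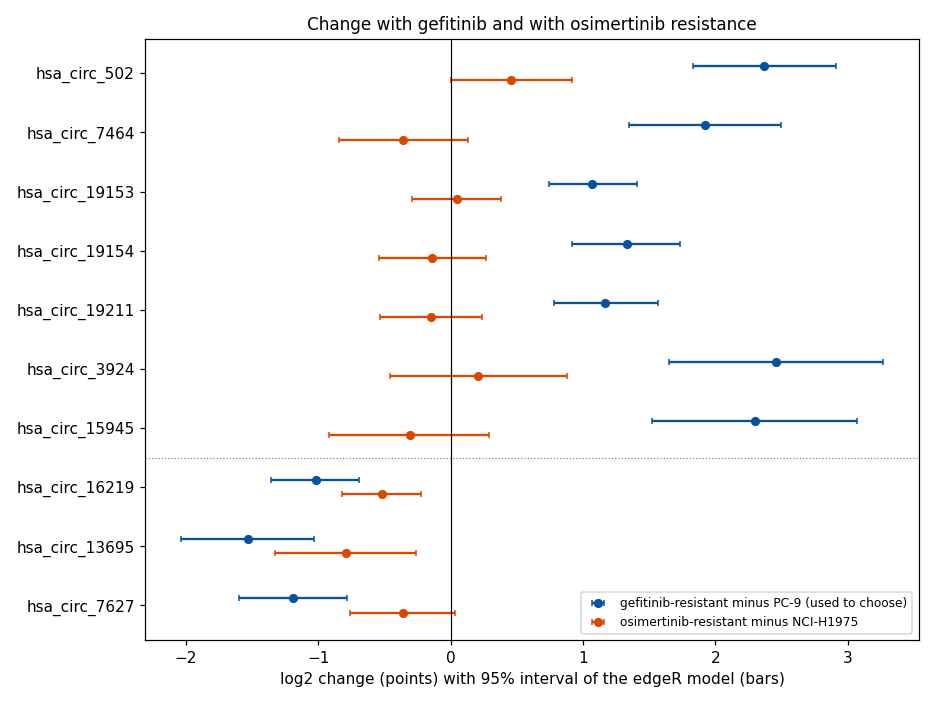
Log2 change (horizontal axis) of each circRNA (vertical axis) with gefitinib resistance in PC-9, which chose the list, and with osimertinib resistance in NCI-H1975. Points are estimates and bars are 95% intervals of the edgeR model. The 7 circRNAs above the dotted line lie between 1.07 and 2.46 for gefitinib and between -0.36 and 0.46 for osimertinib, and the 3 below it are negative for both.

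**Figure D3:**
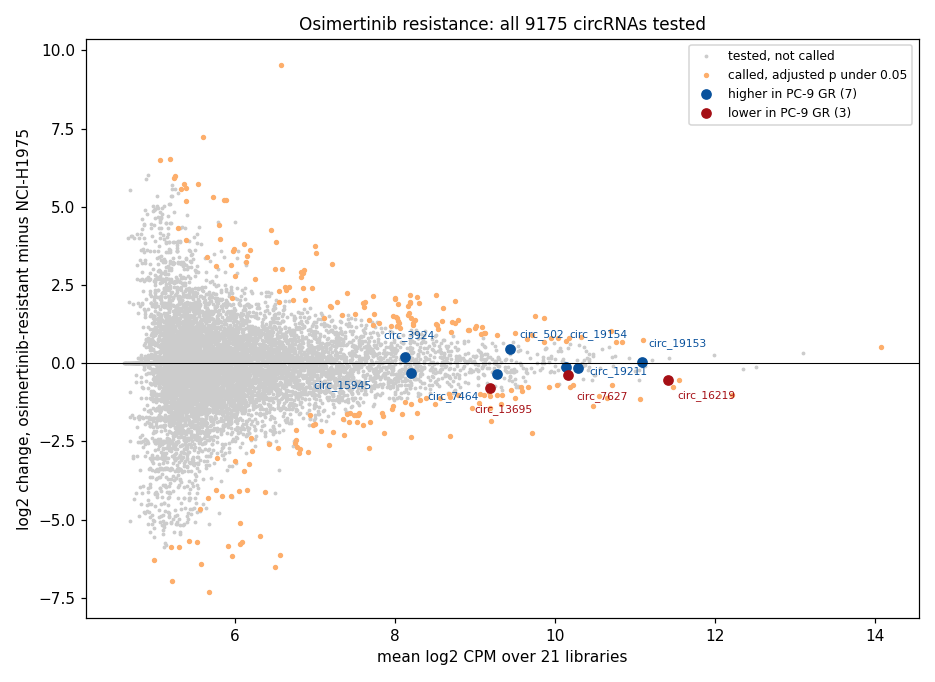
Log2 change with osimertinib resistance (vertical axis) against mean log2 CPM over 21 libraries (horizontal axis) for the 9175 circRNAs tested. Grey points were not called, orange points were called at an edgeR adjusted p under 0.05, and the 10 circRNAs are blue (higher with gefitinib resistance) or red (lower). All 10 lie between -0.79 and 0.46, and among them hsa_circ_16219 was called.

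The levels also differed between lines. Between NCI-H1975 and NL20, 8 of the 10 were called by edgeR's quasi-likelihood test, 5 higher in NCI-H1975 and 3 lower. The background was 8.53% higher and 7.81% lower over all circRNAs tested, and 23.4% and 25% among the 612 well-read ones. hsa_circ_15945 was 4.94-fold higher in NCI-H1975 (log2 2.30 ± 0.35 SE, edgeR adjusted p = 1.91e-09), at 597 ± 225 against 120 ± 49.0 CPM (SD, n = 3). Log2 differences of 1.32 ± 0.21 (SE, edgeR adjusted p = 7.66e-09) for hsa_circ_7627 and 1.21 ± 0.20 (SE, edgeR adjusted p = 8.67e-08) for hsa_circ_19211 put NCI-H1975 2.5-fold and 2.32-fold above NL20. Below NL20, hsa_circ_13695 was 2.91-fold lower (log2 -1.54 ± 0.25 SE, edgeR adjusted p = 2.13e-08) and hsa_circ_19153 2.23-fold lower (log2 -1.16 ± 0.17 SE, edgeR adjusted p = 5.61e-10). These 5 calls held in all 13 alternative settings. The NCI-H1975 libraries are the same ones that served as controls for osimertinib resistance.

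The other 3 calls between NCI-H1975 and NL20 were close to the threshold. hsa_circ_19154 had a log2 difference of -0.60 (edgeR adjusted p = 0.022), hsa_circ_3924 of 0.96 (edgeR adjusted p = 0.0454) and hsa_circ_16219 of 0.42 (edgeR adjusted p = 0.04). With 1 library omitted at a time, the calls remained in 3, 1 and 0 of 6 cases. For hsa_circ_19154 the edgeR adjusted p was 0.0944 without NL20 replicate 3 and 0.0949 and 0.101 without NCI-H1975 replicates 1 and 2. For hsa_circ_3924 it was 0.357 and 0.196 without NL20 replicates 2 and 3, and 0.119, 0.103 and 0.149 without NCI-H1975 replicates 1, 2 and 3. For hsa_circ_16219 it was 0.284, 0.0717 and 0.159 without NL20 replicates 1, 2 and 3, and 0.179, 0.0747 and 0.124 without those of NCI-H1975. hsa_circ_502 and hsa_circ_7464, the circRNAs scarce in PC-9, had log2 differences of -0.26 (95% interval -0.71 to 0.19) and -0.19 (95% interval -0.66 to 0.28) and were not called (edgeR adjusted p = 0.498 and 0.656).

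Plasmid transfection moved none of the 10 past the threshold. Between pCMV6 and NCI-H1975 cells without a plasmid code, edgeR's quasi-likelihood test called 0 of 10, as did DESeq2, and 1 had an unadjusted p under 0.05, beside 7.87% of all circRNAs tested, with 0.12% of all circRNAs tested called higher and 0.24% lower. That one was hsa_circ_15945, at 351, 258 and 273 CPM in pCMV6 cells, a log2 difference of -1.01 (95% interval -1.66 to -0.37, edgeR adjusted p = 0.219). Between FASN and pCMV6 cells both tools again called 0 of 10, and 4 had an unadjusted p under 0.05, beside 7.95% of all, with 0.196% of all tested called higher and 0.12% lower. These 4 were hsa_circ_15945 (log2 0.87, edgeR adjusted p = 0.435), hsa_circ_3924 (0.80, 0.567), hsa_circ_7464 (0.60, 0.481) and hsa_circ_7627 (0.48, 0.491), all with higher values in FASN cells. Between FASN cells and NCI-H1975 cells both tools called 0 of 10, 2 had an unadjusted p under 0.05, and edgeR called 0% of all circRNAs tested, of which 3.66% (336) had an unadjusted p under 0.05. Those were hsa_circ_7464, at 1122, 909 and 1369 CPM in FASN cells (log2 0.59), and hsa_circ_7627, at 2171, 2124 and 1726 CPM (log2 0.48), each with an edgeR adjusted p of 1. The pCMV6 libraries enter the first pair of these comparisons on opposite sides, and the NCI-H1975 libraries the first and the last. The unadjusted shares are over all circRNAs tested, most of them less read than the 10. None was computed for the well-read ones alone.

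**Figure D4:**
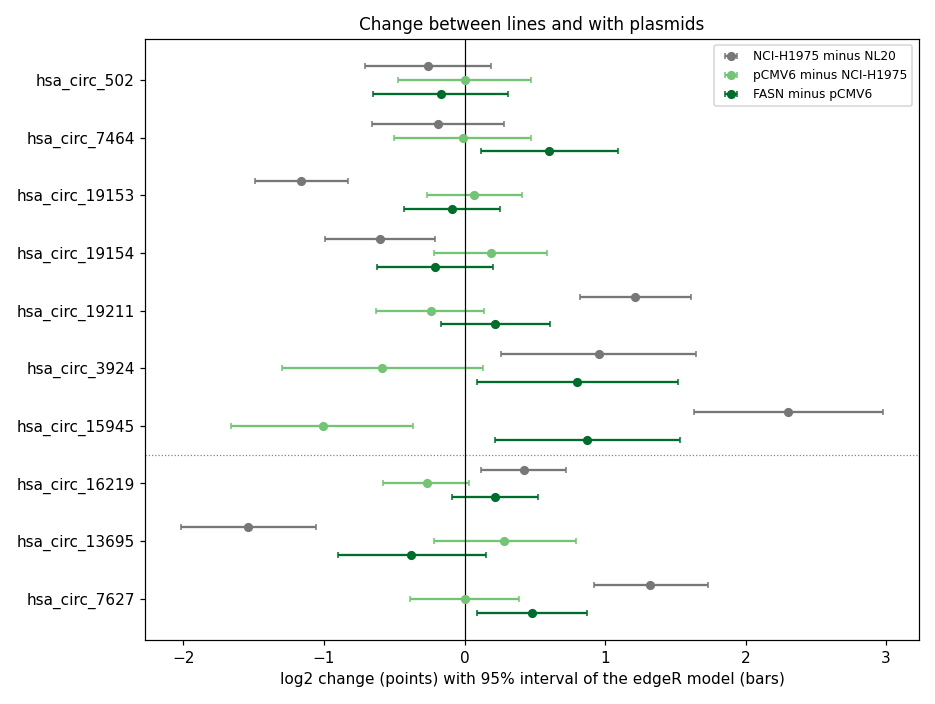
Log2 change (horizontal axis) of each circRNA (vertical axis) between NCI-H1975 and NL20, between pCMV6 and NCI-H1975 cells and between FASN and pCMV6 cells. Points are estimates and bars are 95% intervals of the edgeR model, and the dotted line parts the 7 circRNAs higher with gefitinib resistance from the 3 lower. The differences between lines run from -1.54 to 2.30, and those with plasmids from -1.01 to 0.87.

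The 7 circRNAs higher with gefitinib resistance did not form 1 pattern once PC-9 was left aside. The median Pearson correlation of log2 CPM among their 21 pairs was 0.417 over all 21 libraries and -0.033 over the 15 libraries of NL20 and NCI-H1975. The points share libraries, and the first value holds the contrast that chose the list. hsa_circ_502 and hsa_circ_7464 correlated at 0.798 over 21 libraries and at -0.333 over the 15. By contrast hsa_circ_3924 and hsa_circ_15945 correlated at 0.862 and 0.874, and hsa_circ_19211 and hsa_circ_15945 at 0.815 and 0.861. Also among the 7, hsa_circ_19153 and hsa_circ_19211 ran against each other, at -0.225 and -0.911. So did hsa_circ_19153 and hsa_circ_7627, at -0.87 and -0.839. The latter was chosen as lower with gefitinib resistance, which enters the first of these values.

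hsa_circ_19153 and hsa_circ_19154 are the only members with consecutive numbers, and their levels moved together, at 0.811 over 21 libraries and 0.702 over the 15. Reads of the former exceeded those of the latter in every library. The ratio was 2.58 ± 0.44 in NL20 (SD, n = 3), 2.24 ± 0.28 in PC-9 and 1.86 ± 0.15 in its gefitinib-resistant form. In NCI-H1975 it was 1.74 ± 0.02. In osimertinib-resistant cells it was 2.35, 2.88 and 1.4, the widest spread of the 7 groups. Consecutive numbers went with like levels elsewhere too: among the 959 circRNAs averaging 20 reads or more per library, the median correlation was 0.51 for the 97 consecutively numbered pairs and 0.009 for all pairs. For 13 of the 97 pairs, this one included, it was 0.811 or above. What the numbering follows is not stated. The other direct neighbours of the 10 by number had at most 198 reads over all libraries.

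**Figure D5:**
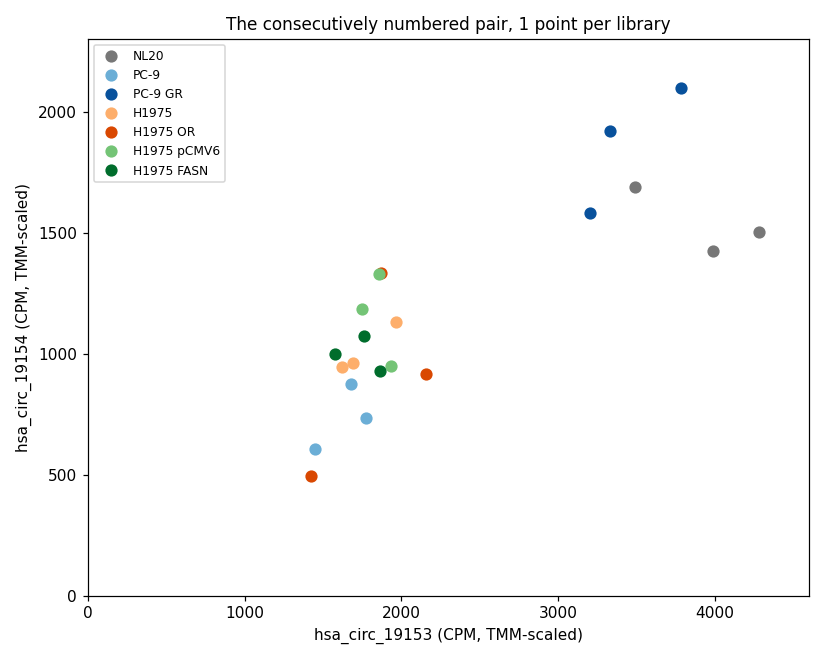
Level of hsa_circ_19154 (vertical axis, TMM-scaled CPM) against hsa_circ_19153 (horizontal axis, the same unit), 1 point per library, coloured by group. The gefitinib-resistant PC-9 and NL20 libraries lie apart at 3208 CPM or more of hsa_circ_19153, and all others at 2158 CPM or less.

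Outside the list, the circRNAs with the most similar levels over the 21 libraries were sought among 949 well-read ones. The closest was hsa_circ_6047 to hsa_circ_16219 (Pearson correlation 0.938, and 0.852 over the 15 libraries without PC-9). hsa_circ_6047 had no read in any PC-9 or gefitinib-resistant library, and means of 453 CPM in NCI-H1975, 239 in osimertinib-resistant cells and 252 in NL20. hsa_circ_14889 was closest to hsa_circ_15945 (0.888 and 0.747) and hsa_circ_19093 to hsa_circ_3924 (0.875 and 0.662). Both were also higher in gefitinib-resistant than in other PC-9 cells, with log2 differences of 1.25 and 1.87. The search for likeness used all 21 libraries, so these differences, and those given next, follow in part from how the circRNAs were picked. With osimertinib resistance the log2 differences were -0.91 for hsa_circ_6047, -0.14 for hsa_circ_14889 and 0.25 for hsa_circ_19093.

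The spread between libraries of a group differed among the 10. The within-group chi-square per degree of freedom, which is near 1 for counting error alone, was on 14 degrees of freedom lowest for hsa_circ_19211 at 1.34 and highest for hsa_circ_7627 at 6.37, against a median of 2.4 over the 959 well-read circRNAs. hsa_circ_19154 followed at 4.21 and hsa_circ_15945 at 3.71. PCR copies of a molecule were not told apart by molecular identifiers as far as the labels say, so these values refer to reads.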

How the data were processed

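Back-splice reads of circRNAs were measured in 21 libraries, 3 for each of 7 groups taken from the sample titles. Per the labels' protocols, circular RNA was purified and made into libraries by a sequencing provider from column-extracted total RNA. The authors deposited raw, whole-number read counts. HISAT2, DESeq2 and hg38 appear in the submitters' processing notes. Neither the circRNA caller nor its filters were found there, so a junction split over identifiers, or missed by the caller, would change a level. The 10 circRNAs and the comparisons were chosen with earlier results of these data known.

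The tests used edgeR 4.0.16 under R 4.3.3. Its function filterByExpr (minimum count 5, minimum total 15) kept 9175 circRNAs (7.39%). One robust quasi-likelihood model with a mean per group was fitted to all 21 libraries after TMM scaling, and p-values were adjusted by Benjamini and Hochberg over all circRNAs tested, with calls at an adjusted p under 0.05. The SE is the log2 change divided by the square root of F, and intervals use the t distribution of the test's degrees of freedom. Log2 CPM for correlations used a prior count of 2. The code was tested on simulated data. Beyond the 10, circRNAs were named by likeness: the 3 highest Pearson correlations with a member among circRNAs averaging 20 reads or more per library. Alternatives were DESeq2 1.42.0, no filter, a minimum count of 10, no TMM factors, the most abundant circRNA removed before scaling, the compared libraries alone, the replicate number as a block, and each library left out. No library was a copy of another of its group, and copies across groups were not looked for.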

Additional observations from a re-analysis of the deposited data

How the results depend on the processing

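For the 10 circRNAs, the PC-9 log2 differences moved by less than the spread between replicates in all 130 alternative values. With osimertinib, 118 of 130 values kept their direction and side of the threshold. The difference of hsa_circ_19153 turned to -0.04 without the filter on low counts, -0.01 when scaling left out the most abundant circRNA, -0.03 without NCI-H1975 replicate 2 and -0.09 without osimertinib-resistant replicate 1, and that of hsa_circ_19154 to 0.15 without osimertinib-resistant replicate 2. With a library left out the former ranged from -0.09 to 0.19 and the latter from -0.52 to 0.15. The number of the 10 called with osimertinib resistance was 1, and it was 0 without the filter and between 0 and 2 with a library left out. Between NCI-H1975 and NL20 it was 8, and 5 without the filter and between 5 and 7 with a library left out. The cause was not tested. The plasmid comparisons called 0 of the 10 in each of the 13 alternatives.

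Over all circRNAs, edgeR called 231 with osimertinib resistance, 53 without the filter and between 115 and 176 with a library left out. Between NCI-H1975 and NL20 it called 1500, 565 without the filter and between 951 and 1064 with a library left out. For pCMV6 against NCI-H1975 the counts were 33, 12 and 9 to 21, and for FASN against pCMV6 29, 8 and 14 to 20. FASN against NCI-H1975 gave 0, and 1 without NCI-H1975 replicate 2. Deviations of same-numbered libraries correlated between -0.025 and 0.034 over all circRNAs tested. Their median was 4.67 reads per library, where counting error is large, so these values cannot decide whether the numbers pair libraries. The replicate block left the members called at 1 for osimertinib and 8 for NCI-H1975 against NL20. Depth limits the least-read circRNAs most: hsa_circ_3924 and hsa_circ_15945 rest on 1 to 12 reads per PC-9 library.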
